A study of Mus musculus with 9 samples.

Results

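The genes described here are 43 genes of interferon signalling and of the response to interferon, chosen by symbol and read in mouse Lewis lung carcinoma (LLC1) cells. Of the 43, 37 were among the 19305 genes listed in at least 1 of the 2 deposited tables, each of them in both, and 6 were listed in neither. LLC1 cells had spent 24 h in contact with T cells of the Th0, Th9 or Th17 subset, with 1 T cell for each LLC1 cell, then CD4+ cells were sorted away and total RNA of the rest was sequenced. There were 3 groups (LLC1 with Th0, LLC1 with Th9, LLC1 with Th17) of 3 libraries each, all from the same tumour line and all exposed to artificially generated T cells, so that none shows LLC1 cells alone. Genotype, treatment with interferon and the origin of the T cells are not given in the sources used here. Nothing in the labels says that replicates came from separate cultures, so p-values measure only the spread between these samples. The question asked here is how far the interferon pathway of LLC1 cells differed between contact with Th9 or Th17 cells and contact with Th0 cells, which in common usage are activated without being polarized.

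Interferons are secreted proteins that signal through cell-surface receptors and Janus kinases to STAT and IRF transcription factors. Type I interferons act through the receptor chains encoded by Ifnar1 and Ifnar2, and their factors bind a promoter element called the ISRE, whereas interferon-gamma, made by activated T cells among others, acts mostly through an element called GAS. The genes that are switched on encode sensors of foreign RNA, antiviral proteins, GTPases that act against intracellular microbes, and feedback inhibitors such as Socs1 and Usp18, and in tumour cells the pathway also governs Cd274, which encodes the T cell inhibitory ligand PD-L1.

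The members that were not listed belong to the genes best known for strong induction by interferon. Isg15 encodes a ubiquitin-like protein, Ifit1 an RNA-binding protein, Oas1a and Oas2 enzymes that make the oligoadenylate activating RNase L, Rsad2 the antiviral enzyme viperin, and Iigp1 a GTPase of the parasite vacuole. No value can be given for these 6 genes. The lowest sum over 6 libraries of any listed gene was 5 in each table, and why a gene is not listed cannot be told from the tables. None of 12 interferon genes looked for was listed either, Ifng and Ifnb1 among them (0 of 12), so no level of an interferon transcript is reported.

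Promoters are shown so that members that differed can be set beside the elements that interferon-activated factors bind. They were taken for members that passed the test in at least 1 comparison with a mean of at least 50, the 6 with the smallest adjusted p, and 1 was added for a gene not listed. RefSeq promoter windows of GRCm38.p6, from 250 bases before to 50 bases after a transcription start, were found for 36 of the 43 members. In these windows the ISRE core was searched as GAAA, any 2 bases and GAAA again, and the GAS element as TTCNNNGAA, on both strands, and matches of both may overlap. The stretches below run 5′ to 3′ on the strand of the gene and end just before the RefSeq start. Capitals mark the matches. Bst2 (chr8:71537473-71537722, minus strand), Ifnar2 (chr16:91372533-91372782, plus strand), Irf2 (chr8:46739495-46739731, plus strand, ending where the first exon of the GENCODE annotation starts) and Irgm1 (chr11:48871435-48871450, minus strand, the matches alone, since the window lies in an exon of another Irgm1 transcript) are the 4 of these 6 whose window held a match. Isg15 (chr4:156200819-156201068, minus strand) is shown as a member that was not listed, and was chosen after the values had been seen.
Bst2: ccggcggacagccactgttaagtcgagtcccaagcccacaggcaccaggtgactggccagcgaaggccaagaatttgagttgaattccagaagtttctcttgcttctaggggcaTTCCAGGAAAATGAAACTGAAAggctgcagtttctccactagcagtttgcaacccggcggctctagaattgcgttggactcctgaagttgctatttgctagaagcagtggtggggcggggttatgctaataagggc
Ifnar2: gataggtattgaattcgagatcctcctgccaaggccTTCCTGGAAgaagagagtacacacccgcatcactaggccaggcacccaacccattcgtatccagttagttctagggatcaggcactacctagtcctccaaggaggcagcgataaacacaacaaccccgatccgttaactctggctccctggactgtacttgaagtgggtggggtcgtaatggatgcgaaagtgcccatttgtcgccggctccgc
Irf2: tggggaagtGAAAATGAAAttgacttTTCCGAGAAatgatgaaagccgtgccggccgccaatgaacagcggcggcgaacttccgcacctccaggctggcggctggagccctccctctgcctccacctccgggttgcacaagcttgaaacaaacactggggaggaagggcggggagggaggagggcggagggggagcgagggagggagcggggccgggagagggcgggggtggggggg
Irgm1: GAAATAGAAACCGAAA
Isg15: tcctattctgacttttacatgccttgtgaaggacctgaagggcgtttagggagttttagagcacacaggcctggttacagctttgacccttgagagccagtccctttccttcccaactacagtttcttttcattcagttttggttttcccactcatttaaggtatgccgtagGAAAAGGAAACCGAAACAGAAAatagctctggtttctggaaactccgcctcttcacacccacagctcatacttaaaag

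In the Bst2 promoter 1 GAS match and 2 ISRE cores ran into each other, starting 136, 130 and 124 bases before the start. The Irgm1 stretch holds 2 overlapping ISRE cores, 30 and 24 bases before the start, and the Isg15 stretch holds 3. Irf2 has 1 ISRE core at 241 bases and 1 GAS match at 224 bases, and Ifnar2 has 1 GAS match at 214 bases. The windows of Jak1 and Tyk2, the others of the 6, held no match to these letters. Of further members that passed in Th9 against Th0, Socs1 held 2 ISRE cores, Oas3 held 1 and Irf8 held 2 GAS matches in 1 of its windows, while those of Jak2 and Xaf1 held none. Over the members, 19 of 41 promoter windows (46.34%) held an ISRE core, against 3.443% of all 32851 windows, and 13 of 41 (31.71%) held a GAS match, against 8.298%. As the members were chosen as interferon genes, these shares describe the list and not these samples.

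**Figure D1:**
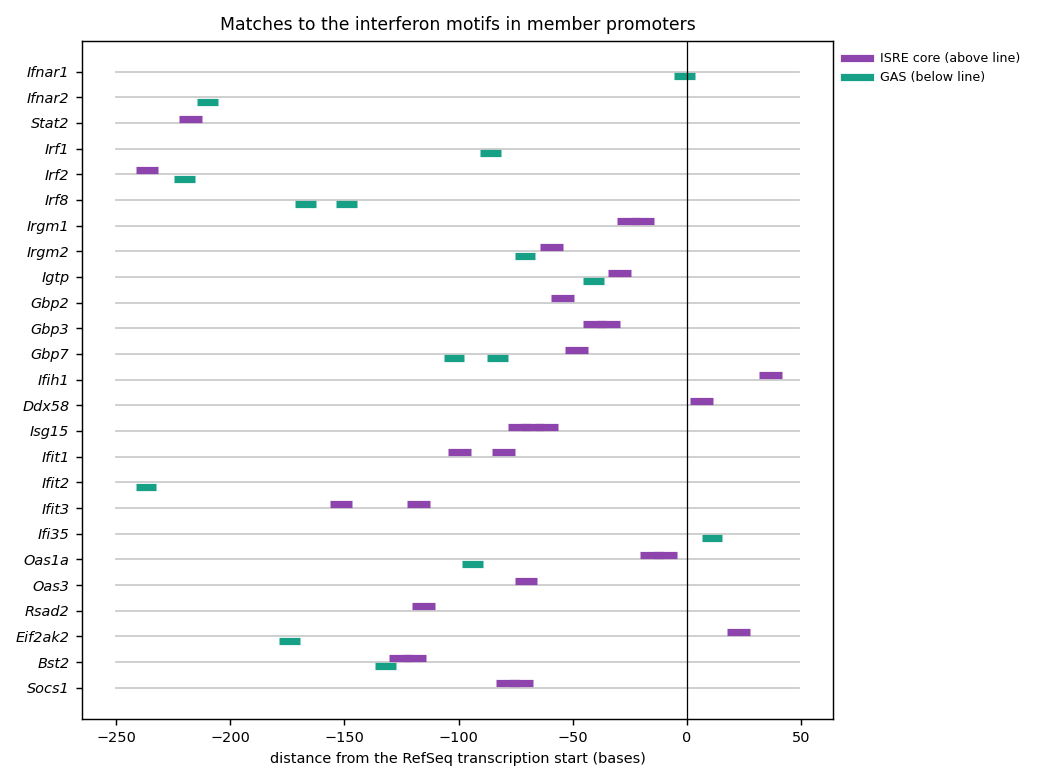
Map of matches to the ISRE core (2 GAAA half-sites with 2 bases between them, above each line) and the GAS element (TTCNNNGAA, below each line) in the promoter windows of members that hold at least 1 match. The x axis gives the distance in bases from the RefSeq start, from 250 before to 50 after, and the Bst2, Irgm1 and Isg15 matches sit next to or over each other.

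Members with an ISRE core had a lower median level in these cells than members without one, whereas for the GAS element the order was reversed. Levels are deposited normalized counts, in which each library's reads were scaled by 1 size factor, and between genes they are compared per kb of annotated exon. Among the 19 members with an ISRE core 4 were not listed, and the 15 listed ones had a median Th0 level of 10.2 per kb, from 0.449 (Ifih1) to 307.1 (Eif2ak2). All 17 members whose window held none were listed, with a median of 79.5 per kb. Ifnar1, Ifnar2, Jak1, Jak2 and Tyk2, the whole role of receptors and kinases, were among these 17, so the groups differed in role too. The part of role in the levels was not tested. The cores of Ddx58, Eif2ak2 and Ifih1 lay after the RefSeq start. In Th9 against Th0, of 12 tested members with an ISRE core 4 passed the test as higher and 1 as lower, and of 16 tested members without one 3 and 1, against 13.4% higher and 11.9% lower of all genes tested. Among the 4 is Oas3, which entered the test only through its Th9 libraries. Dhx58, Ifi27, Iigp1, Oas2, Parp9, Parp14 and Usp18 had no promoter entry.

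Values come from 2 tables normalized separately, 1 with Th0 and Th9 and 1 with the same Th0 libraries and Th17, and each comparison with Th0 stayed in its table. Library depth was similar, between 12719437 and 17504876 approximate reads. Th0 replicate 1 stood apart: 31.1% of its summed values fell on mt-Rnr1, mt-Rnr2 and Gm26917, against 14.9% to 21.8% in the others, and among 33 tested members it was the lowest Th0 library for 18 and the highest for 11. Of the genes taken as markers of the line, Krt8, Krt18, Vim and Cdh2 were listed, while the epithelial markers Cdh1 and Epcam were not. Their sum was 61278 to 88931 in Th0, 70413 to 73737 in Th9 and, in its own table, 83936 to 85788 in Th17 (63023 to 90856 in Th0). Most of this sum was Vim alone, at 56024 to 81414 in Th0, 65637 to 68614 in Th9 and 77698 to 79383 in Th17. In Th9 1 of the 4 was called lower, Krt8, at 1688 to 2470 in Th0 and 956 to 1255 in Th9. The summed level of 16 T cell marker genes, all listed in the Th9 table, was 90 to 193 in Th0 and 1268 to 1775 in Th9. There 13 of 15 tested were called higher, against 13.4% of all genes tested. Cd3d, Cd3e, Cd3g, Cd2 and Icos were among those that entered the test only through their Th9 libraries, so their calls add nothing to these values. Of the defining markers, Cd3g was at 2 to 8 in Th0 and 254 to 352 in Th9, whereas Cd4, on which the sort was made, was at 8 to 18 and 17 to 23. In the other table, the list had 11 of 16 genes, without Cd3d and Cd3e, and their sum was 90 to 185 in Th0 and 59 to 88 in Th17. Of 6 B cell markers, all listed, the sum was 81 to 287 in Th0 and 84 to 99 in Th9, and with Th17 it was 12 to 18, against 83 to 295 for Th0 in that table. Ighm made up most of the Th0 sums, at 48 to 191 in Th0, 67 to 75 in Th9 and 2 to 4 in Th17. Among 3 tested B cell markers 1 was called lower in Th9 and 2 in Th17, against 11.9% and 0.39% of all genes tested. All 3 entered the test with Th17 only through their Th0 libraries. Of 7 myeloid markers 4 were listed, with sums of 167 to 311 in Th0, 208 to 263 in Th9 and 163 to 187 in Th17, and Adgre1 and Itgam were not listed. Cd68 made up most of these sums. The others did not move together in Th9: Lyz2 was at 11 to 33 in Th0 and 0 to 2 in Th9, and Cd14 at 26 to 41 and 58 to 67. In Th9 1 myeloid marker was called higher and 1 lower, and in Th17 0 were called. T cells also express much of the interferon pathway. The part that T cell RNA had in the differences of Th9 below was not tested.

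**Figure D2:**
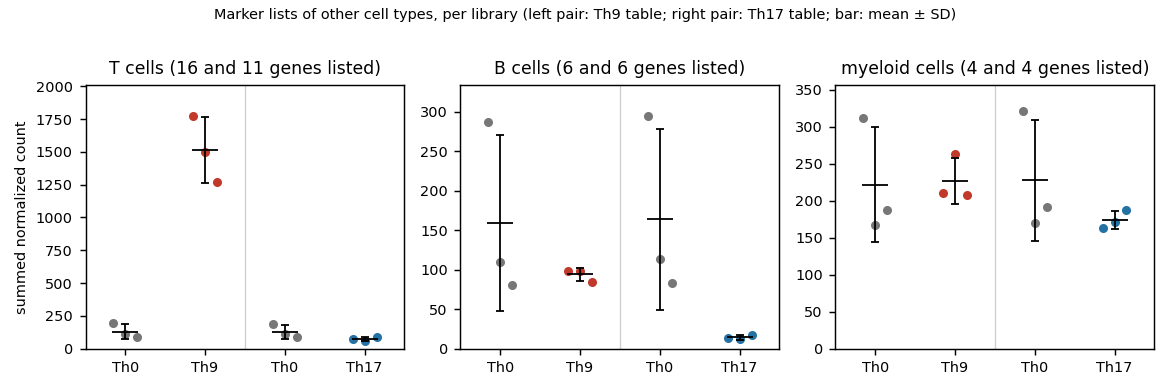
Summed normalized count of marker lists for T cells, B cells and myeloid cells (y axis) in each library, by group; the left pair of groups is from the table with Th9 and the right pair from the table with Th17, points are libraries and bars are mean ± SD. The T cell sum was 1268 to 1775 in the Th9 libraries and 193 or less in all others.

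In Th0 the most abundant listed members per kb were kinases and a ubiquitin ligase. Jak1, the kinase shared by type I and type II receptors, had a mean of 495.5 normalized counts per kb. Eif2ak2, the RNA-activated kinase PKR, followed with 307.1, Trim25, a ubiquitin ligase that activates RIG-I, with 218.1, and Jak2, the kinase of the interferon-gamma receptor, with 190.3. At the other end stood Oas3 with 0.849, Oasl2 with 0.732 and Ifih1, which encodes the RNA sensor MDA5, with 0.449.

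Members of one family lay far apart. Ifit2 had 175.7 normalized counts per kb in Th0 and its neighbour Ifit3, 7111 bp away on chromosome 19, had 3.63, while Ifit1 was not listed. Ddx58, which encodes the RNA sensor RIG-I, had 35.8 per kb and Dhx58, which encodes the related LGP2, 12.6, both above Ifih1. The 3 receptor and kinase genes of the type I receptor besides Jak1 lay close together, with 92.5 per kb for Ifnar1, 80.5 for Tyk2 and 73.9 for Ifnar2. Irf1, an activator of interferon-induced genes, had 100.8 per kb and its competitor Irf2 88.1, whereas Irf7, which amplifies interferon production, had 4.68 and Irf8, a factor of lymphoid and myeloid cells, 2.55.

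**Figure D3:**
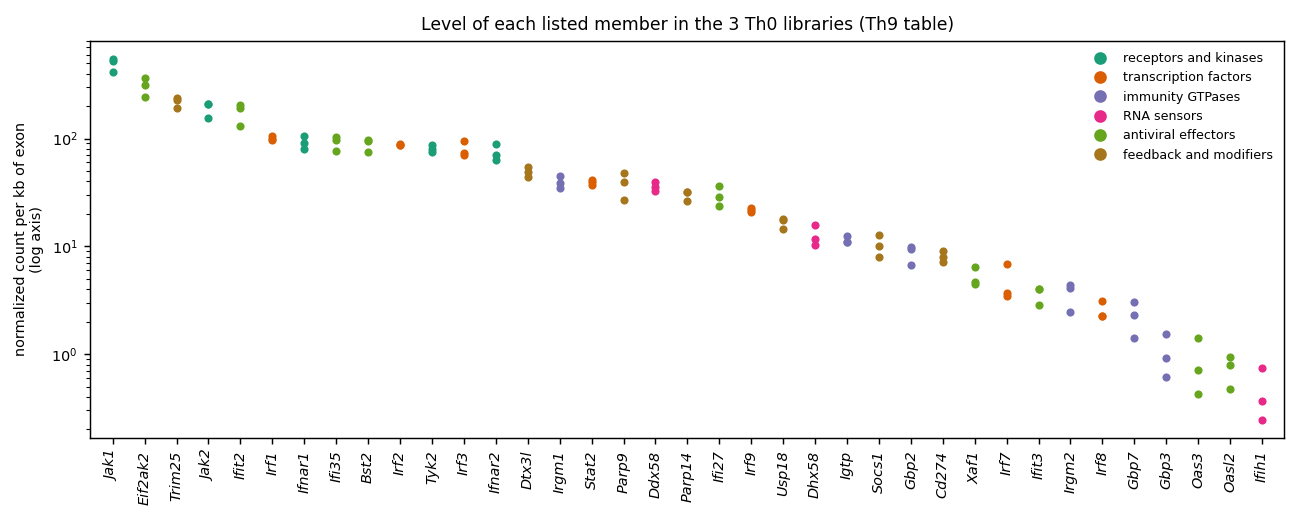
Normalized count per kb of exon (log y axis) of each of the 37 listed members in the 3 Th0 libraries of the table with Th9, 1 point per library, ordered by mean and coloured by role. Levels run from 495.5 per kb for Jak1 down to 0.449 for Ifih1.

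In LLC1 cells kept with Th9 cells, 10 of the 33 tested members differed from Th0, a share near that of all genes. Ifnar2, Jak2, Irf2, Irf8, Bst2, Socs1 and Oas3 were higher than with Th0, and Irgm1, Xaf1 and Usp18 were lower. The largest change among the calls of higher was that of Irf8 (2.73-fold), and among the calls of lower that of Usp18 (0.514 times the Th0 level). Oas3 entered the test only through its Th9 libraries. Of 33 members tested, 7 were higher and 3 lower, a share of 30.3%, against 25.2% of all 14475 genes tested (13.4% higher, 11.9% lower). The median log2 fold change of the tested members was 0.05, and that of all genes tested -0.01. Tests were limma-trend on log2(value + 1), for which a gene had to have a mean of 10 or more, a call was a Benjamini-Hochberg adjusted p under 0.05 over all genes, and fold changes are on that log2 scale, which understates the change of low genes. In these bulk samples fewer cells of a type and less RNA per cell cannot be told apart.

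**Figure D4:**
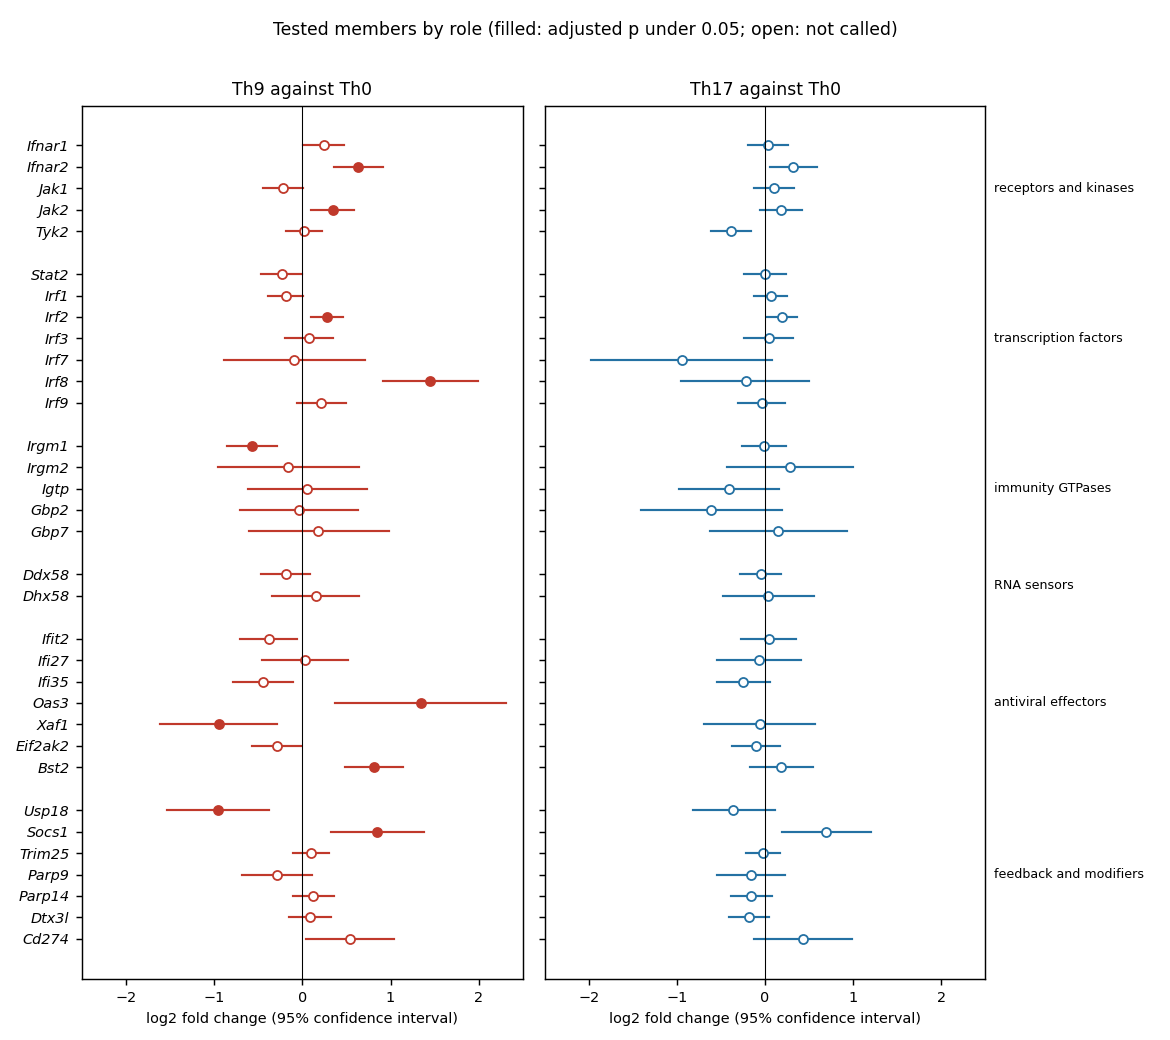
Log2 fold change (x axis) with its 95% confidence interval for each tested member, by role, in Th9 against Th0 (left) and Th17 against Th0 (right). Filled points are the 10 members called in Th9 against Th0, 7 to the right of 0 and 3 to the left; no point is filled on the right. Both panels share the Th0 libraries.

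Among the receptors and kinases, 2 of 5 were called higher with Th9. In this role and the roles below, members were too few to be compared with the share of all genes tested. That share was 13.4% higher and 11.9% lower. Ifnar2, the chain that binds type I interferon with high affinity and docks Usp18 (chr16:91372783-91405589), was at 233, 294 and 211 normalized counts in Th0 and 406, 370 and 360 in Th9. All Th9 libraries were above all Th0 libraries. The log2 fold change was 0.63 ± 0.13 (SE), with an adjusted p of 0.0034. Jak2 was at 781, 1049 and 1042 in Th0 and 1182, 1185 and 1250 in Th9. The groups did not overlap, but Th0 replicate 1 was well under the other Th0 libraries. Jak2 had a log2 fold change of 0.35 ± 0.11 (adjusted p 0.0379), 0.20 without Th0 replicate 1 (adjusted p 0.0227), and an adjusted p of 0.105 to 0.127 without any one of the Th9 libraries. Jak1, the most abundant of the role, was at 2988, 3972 and 3783 in Th0 and 3099, 3060 and 3001 in Th9. The Th9 libraries lay just over Th0 replicate 1 and under the other Th0 libraries. Its log2 fold change was -0.22 ± 0.11 (adjusted p 0.152), and -0.34 (adjusted p 0.000163) without Th0 replicate 1. Ifnar1 and Tyk2 did not pass the test, with log2 fold changes of 0.24 (95% confidence interval 0.01 to 0.47) and 0.02 (-0.19 to 0.22). Without Th0 replicate 2, Ifnar1 had an adjusted p of 0.0325.

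Of 7 transcription factors, Irf2 and Irf8 rose. Irf8 (chr8:120736358-120756694) was at 22, 16 and 16 in Th0 and 55, 55 and 42 in Th9, a log2 fold change of 1.45 ± 0.25 with an adjusted p of 0.00122. Every Th9 library was at least at 42 and no Th0 library over 22. Irf8 is also expressed by T cells, B cells and myeloid cells, whose marker sums are given above. Irf2, which competes with Irf1 for the ISRE (chr8:46739732-46847458), was at 639, 665 and 651 in Th0 and 837, 799 and 745 in Th9. The groups did not overlap, and the Th0 libraries spread by little. The log2 fold change was 0.28 ± 0.08 (adjusted p 0.0262), and the adjusted p was 0.0739 without Th0 replicate 3 and 0.148 and 0.104 without Th9 replicate 1 or 2. Stat2, the partner of Irf9 in the factor that type I interferon activates, and Irf1 had log2 fold changes of -0.23 (95% confidence interval -0.47 to 0.00) and -0.19 (-0.39 to 0.01) and did not pass. Irf3, which RNA sensors activate, was at 0.07 (-0.20 to 0.35), Irf9 at 0.21 (-0.06 to 0.49). Irf7 was low, at 13 to 26 in Th0 and 13 to 23 in Th9.

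Of 7 immunity GTPases, Irgm1 fell. It is a regulator that keeps its sister GTPases off the membranes of the cell (chr11:48861968-48871683), and it was at 200, 262 and 225 in Th0 and 140, 161 and 158 in Th9. No Th9 library reached the lowest Th0 library. Its log2 fold change was -0.57 ± 0.13 (adjusted p 0.00729), and -0.67 without Th0 replicate 1. Its relatives Irgm2 and Igtp were at 9 to 16 and 22 to 25 in Th0 and at 9 to 14 and 15 to 32 in Th9. Those ranges overlap, and the spans of Irgm2 and Igtp share 7974 bp on the same strand, so that reads can be counted for either. Gbp2 and Gbp7, guanylate-binding proteins, were at 17 to 25 and 8 to 17 in Th0 and did not pass. Gbp3 was at 3, 5 and 2 in Th0 and 13, 13 and 11 in Th9, below the mean of 10 the test asked for, and in the fit with no filter it had a log2 fold change of 1.68 ± 0.44 (adjusted p 0.0151). Gbp genes are relatives of each other, and whether reads were split between them was not tested.

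Neither of the RNA sensors tested passed. Ddx58 was at 229, 278 and 251 in Th0 and 187, 243 and 238 in Th9, with overlapping groups. Its log2 fold change was -0.19 (95% confidence interval -0.47 to 0.09), and that of Dhx58 was 0.15 (-0.34 to 0.64). Ifih1 was under the filter, at 2 to 6 in Th0 and 6 to 7 in Th9.

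Of the 14 antiviral effectors 9 were listed and 7 tested, and Bst2 rose while Xaf1 fell. Bst2 (chr8:71534255-71537456) encodes tetherin, which holds budding virus at the cell surface. It was at 68, 86 and 87 in Th0 and 129, 145 and 148 in Th9, with no overlap, and it rose 1.75-fold (log2 fold change 0.81 ± 0.15, adjusted p 0.00229). Xaf1, an interferon-induced driver of apoptosis, was at 30, 22 and 21 in Th0 and 13, 13 and 10 in Th9. Its groups did not overlap, at low levels. The log2 fold change was -0.95 ± 0.31 (adjusted p 0.0377), and the adjusted p was 0.0583 to 0.113 when any one of the 6 libraries was left out. With equal totals per library it was 0.0566, and 0.0531 without the 3 RNA genes in the total. Oas3 was called higher, at 3, 5 and 10 in Th0 and 17, 13 and 16 in Th9 (log2 fold change 1.34 ± 0.45, adjusted p 0.0442). It entered the test only through its Th9 libraries, as its Th0 mean was 6, and leaving out Th0 replicate 1, Th0 replicate 2 or, in the other group, Th9 replicate 2 gave an adjusted p of 0.0583, 0.0824 and 0.101, and limma's array weights, which weigh libraries by their spread, gave 0.0763.

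The abundant effectors Ifit2 and Eif2ak2 did not pass with all libraries weighted equally. Ifit2 was at 516, 805 and 749 in Th0 and 465, 508 and 591 in Th9, and Eif2ak2 at 1254, 1849 and 1607 in Th0 and 1261, 1167 and 1377 in Th9. In both genes Th0 replicate 1 lay inside the range of the Th9 libraries and the other Th0 libraries above it. The log2 fold changes were -0.38 ± 0.15 for Ifit2 (adjusted p 0.0801) and -0.29 ± 0.13 for Eif2ak2 (adjusted p 0.108). Without Th0 replicate 1 they were -0.58 (adjusted p 0.0001) and -0.45 (adjusted p 0.000253). Ifi35, an interferon-induced leucine zipper protein, was at 132, 166 and 177 in Th0 and 98, 127 and 121 in Th9. Its groups did not overlap, and its log2 fold change was -0.45 ± 0.16 with an adjusted p of 0.0512, or -0.58 and 0.00415 without Th0 replicate 1. With array weights all of these passed as lower (adjusted p 7.02e-05 for Ifit2, 0.000474 for Eif2ak2 and 0.000804 for Ifi35), and Ifi35 also with a mean of at least 50 (0.0456). Ifi27 was at 35 to 53 in Th0 and 37 to 50 in Th9, and Ifit3 and Oasl2 were at 7 or less in every library of the table with Th9.

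The 2 feedback inhibitors among the members moved in opposite directions. Usp18, which removes Isg15 protein from its targets and shuts off signalling at the type I receptor (chr6:121245906-121270917), was at 40, 49 and 50 in Th0 and 18, 21 and 33 in Th9. No Th9 library reached the lowest Th0 library. The log2 fold change was -0.96 ± 0.26 (adjusted p 0.0199), and -1.06 without Th0 replicate 1 (adjusted p 0.00572). Leaving out replicate 2 or 3 of Th0, or 1 or 2 of Th9, ended the call (adjusted p 0.0566 to 0.0957). The span of Usp18 shares 15715 bp with Gm44148 on the other strand, and whether counting used the strand is not given in the sources used here. Socs1, which blocks Janus kinases (chr16:10783808-10785536), was at 37, 29 and 23 in Th0 and 60, 59 and 43 in Th9. All Th9 libraries were above all Th0 libraries, and Socs1 rose 1.81-fold (log2 fold change 0.85 ± 0.24, adjusted p 0.023). Leaving out replicate 3 of Th0, replicate 1 of Th9 or replicate 2 of Th9 gave an adjusted p of 0.087, 0.111 and 0.102.

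The other modifiers did not pass in Th9. Trim25, the most abundant, was at 1099, 1358 and 1307 in Th0 and 1355, 1287 and 1367 in Th9, and its log2 fold change was 0.10 (95% confidence interval -0.11 to 0.30). Parp9 and Dtx3l, which form a complex of an ADP-ribosyltransferase and a ubiquitin ligase and whose spans share 682 bp on opposite strands, had log2 fold changes of -0.29 (-0.69 to 0.11) and 0.09 (-0.15 to 0.33). Without Th0 replicate 1, Parp9 had a log2 fold change of -0.52 (adjusted p 0.00471). Cd274 was at 33, 26 and 29 in Th0 and 45, 35 and 50 in Th9. These groups did not overlap, yet the adjusted p was 0.108, with a log2 fold change of 0.54 (0.04 to 1.04).

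**Figure D5:**
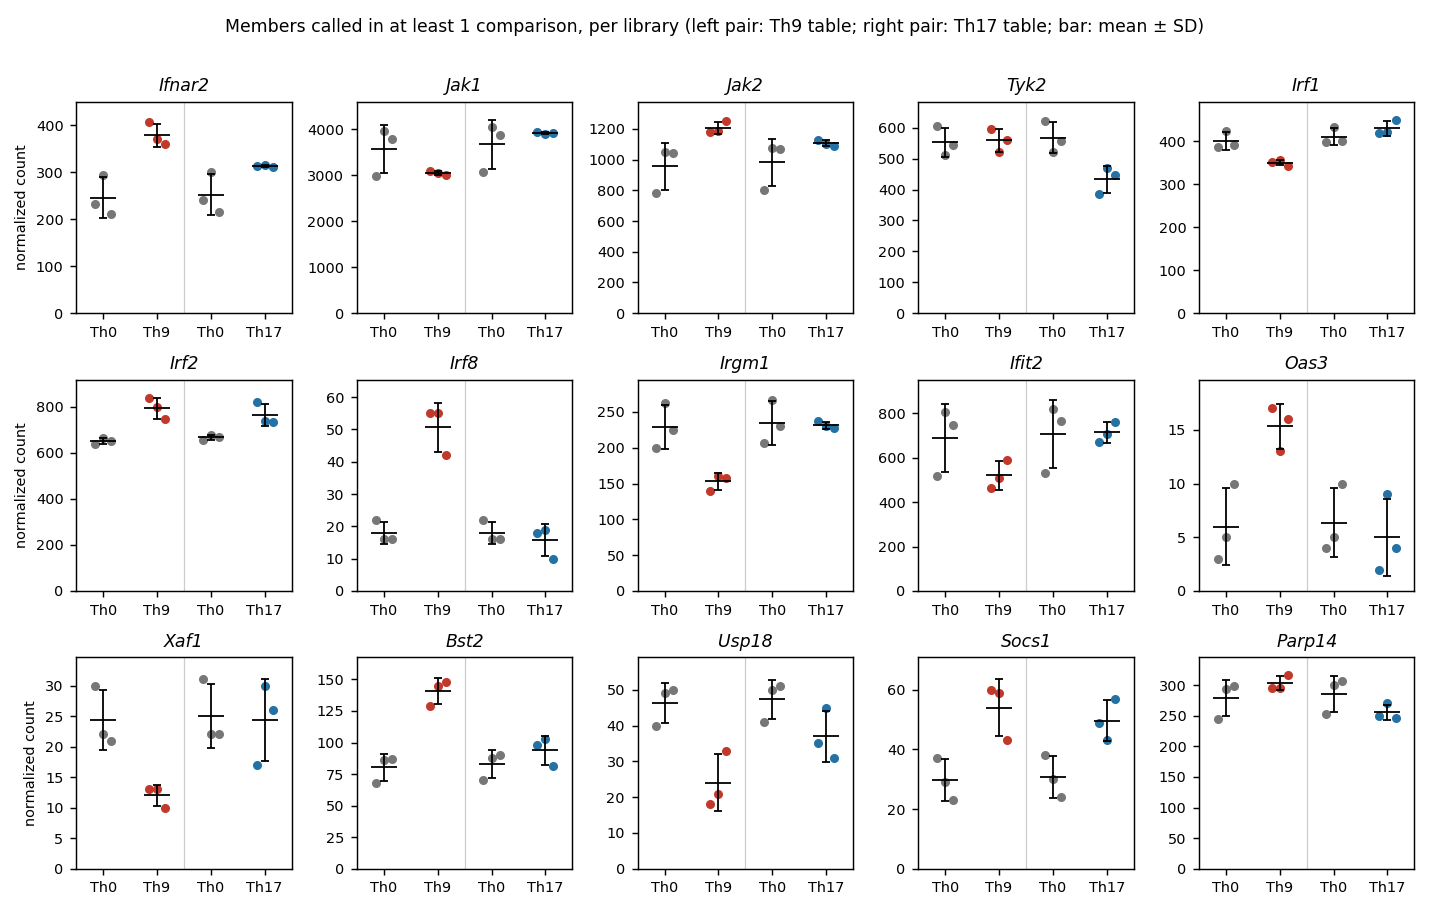
Normalized count (y axis, from 0) of the 15 members called in at least 1 of the 3 comparisons, in each library; in each panel the left pair of groups is the table with Th9, the right pair the table with Th17, and bars are mean ± SD of 3 libraries. In Th9 Irf8 was at 42 to 55 against 16 to 22 in Th0, and Bst2 at 129 to 148 against 68 to 87, while Usp18 was at 18 to 33 against 40 to 50.

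Leaving out Th0 replicate 1 changed which members passed in Th9 against Th0. Without it 6 members were called higher and 7 lower, against 18.1% and 19.1% of all genes: Jak1, Ifit2, Ifi35, Eif2ak2 and Parp9 became calls of lower, and Oas3 and Xaf1 were no longer called. With array weights 8 were higher and 9 lower, against 22.8% and 23% of all genes. Ifnar2, Irf8, Irgm1 and Bst2 passed in the same direction under every alternative that tested them, which for Irf8 leaves out the mean of at least 50.

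In LLC1 cells kept with Th17 cells, no member passed the test against Th0. Of 32 members tested 0 were called by limma-trend, against 1.58% of all 14342 genes tested (1.19% higher, 0.39% lower), and 4 had an unadjusted p under 0.05. The median log2 fold change of the tested members was -0.02, and that of all genes 0. With array weights 2 members were called higher (Ifnar2 and Socs1) and 2 lower (Tyk2 and Ifi35), against 11% and 12.5% of all genes. Without Th0 replicate 1 the calls were 1 higher (Socs1) and 3 lower (Tyk2, Eif2ak2 and Parp9), against 6.85% and 9.7% of all genes.

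The members with the smallest unadjusted p were Tyk2, Socs1, Ifnar2 and Irf2. Tyk2, the kinase on the Ifnar1 chain (chr9:21104069-21127346), was at 621, 522 and 558 in Th0 and 384, 469 and 447 in Th17. All Th17 libraries were under all Th0 libraries. The log2 fold change was -0.39 ± 0.10 (adjusted p 0.0874), and -0.32 without Th0 replicate 1 (adjusted p 0.0246). The span of Tyk2 shares 23278 bp with 1700084C06Rik on the other strand. Socs1 was at 38, 30 and 24 in Th0 and 49, 43 and 57 in Th17. The groups did not overlap, and its log2 fold change was 0.69 ± 0.23 (adjusted p 0.15), or 0.85 without Th0 replicate 1 (adjusted p 0.0168). Ifnar2 was at 240, 300 and 216 in Th0 and 313, 315 and 310 in Th17, a log2 fold change of 0.32 ± 0.12 (adjusted p 0.193). Irf2 was at 657, 679 and 668 in Th0 and 819, 737 and 734 in Th17, a log2 fold change of 0.19 ± 0.08 (adjusted p 0.228). In both genes the groups did not overlap.

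For members described above for Th9, the intervals in Th17 were as follows. The 95% confidence interval of the log2 fold change was -0.95 to 0.50 for Irf8, -0.17 to 0.54 for Bst2 and -0.26 to 0.24 for Irgm1. For Usp18 it was -0.82 to 0.11, with 41, 50 and 51 in Th0 and 35, 45 and 31 in Th17. Ifit2 had -0.27 to 0.35, and Cd274 -0.12 to 0.99, with 50, 46 and 29 in Th17 against 34, 26 and 30. The intervals of Irf8 and Usp18 are wide, so a moderate shift was not detectable with 3 libraries a group. Low members spread widely, as Irf7 did with 27, 13 and 14 in Th0 and 4, 14 and 10 in Th17.

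Whether the members differed between Th17 and Th9 themselves was tested on approximate reads of all 9 libraries brought to 1 scale. Irf8, Bst2, Tyk2 and Parp14 were lower with Th17 than with Th9, and Jak1, Irf1, Irgm1, Ifit2 and Xaf1 were higher. These are 9 of 32 tested members (28.12%), against 20.9% of all 14453 genes tested (9.63% higher, 11.3% lower). The median log2 fold change of the tested members was -0.12, and that of all genes 0.01. This comparison shares its Th9 and Th17 libraries with those against Th0.

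Irf8 had the largest difference. On the common scale it was at 57.6, 57.3 and 43.8 in Th9 and 18.4, 19.0 and 10.4 in Th17, a log2 fold change of -1.71 ± 0.28 (adjusted p 0.000446). Th0 was at 16 to 22.8, a range that overlaps that of Th17. Bst2 was at 135.4, 151.5 and 155.7 in Th9 and 98.7, 104.9 and 81.9 in Th17 (log2 fold change -0.63 ± 0.15, adjusted p 0.00579). Tyk2, at 622.2, 545.5 and 586.2 in Th9 and 388.1, 475.6 and 453.7 in Th17, had a log2 fold change of -0.42 ± 0.10 (adjusted p 0.00573). The Th9 libraries of Tyk2 lay in the Th0 range of 525.0 to 629.9, and those of Th17 below it.

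Parp14 and Jak1 passed by less. Parp14, an ADP-ribosyltransferase, was at 309.2, 309.1 and 331.8 in Th9 and 252.6, 274.2 and 251.3 in Th17 (log2 fold change -0.29 ± 0.10, adjusted p 0.0448). Jak1 was at 3241.5, 3200.3 and 3147.9 in Th9 and 3981.0, 3952.1 and 3971.9 in Th17 (log2 fold change 0.31 ± 0.09, adjusted p 0.019). Neither pair of groups overlapped. Each lost its call when any one of the Th9 or Th17 libraries was left out, with adjusted p of 0.0695 to 0.144 for Parp14 and 0.0566 to 0.0656 for Jak1. With equal totals per library the adjusted p was 0.0573 for Parp14 and 0.236 for Jak1. Parp14 had 0.0516 with no filter and 0.0543 with the Th17 table brought to the Th9 table through the shared Th0 libraries.

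Among the response genes higher with Th17, Irgm1 stood at 146.9, 168.9 and 165.9 in Th9 and 239.6, 234.5 and 230.6 in Th17. The Th17 values lay in the Th0 range of 208.8 to 269.6. Irgm1 had a log2 fold change of 0.55 ± 0.11 (adjusted p 0.00233). Ifit2 was at 486.8, 531.2 and 619.8 in Th9 and 680.8, 717.6 and 774.6 in Th17, with a log2 fold change of 0.41 ± 0.13 (adjusted p 0.0392). It did not pass without Th9 replicate 1 or 2 or any one of the Th17 libraries (adjusted p 0.0675 to 0.172). Irf1 was at 367.7, 372.5 and 359.3 in Th9 and 425.0, 426.9 and 457.4 in Th17 (log2 fold change 0.25 ± 0.08, adjusted p 0.0312). Without any one of the 6 libraries of Th9 and Th17 the adjusted p of Irf1 was 0.0662 to 0.136. With equal totals per library it was 0.281 for Irf1 and 0.179 for Ifit2. Xaf1 was at 13.4, 13.3 and 10.2 in Th9 and 17.3, 30.6 and 26.4 in Th17 (log2 fold change 0.93 ± 0.29, adjusted p 0.0339). It did not pass without any one Th9 library or Th17 replicate 2 or 3 (adjusted p 0.0621 to 0.161).

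Of the members called in Th9 against Th0, Ifnar2, Jak2, Irf2, Usp18 and Socs1 did not pass between Th17 and Th9. Ifnar2 was intermediate in Th17, at 315.3 to 319.6 against 217.9 to 302.6 in Th0 and 377.6 to 424.4 in Th9. Its log2 fold change from Th9 to Th17 was -0.32 ± 0.11 (adjusted p 0.0512), and the adjusted p was 0.0222, 0.0146 and 0.03 without Th0 replicate 1, 2 or 3. Usp18 had a log2 fold change of 0.59 ± 0.25 (adjusted p 0.113), or 0.83 without Th9 replicate 3 (adjusted p 0.0338). Socs1 was at 44.8 to 62.4 in Th9 and 43.8 to 58.4 in Th17, overlapping ranges that both lie above the Th0 range of 24.2 to 38.4. Its log2 fold change between them was -0.14 (95% confidence interval -0.61 to 0.33). With no filter on low values, Gbp3 had -2.09 ± 0.45 (adjusted p 0.00357) and Oas3 -1.66 ± 0.48 (adjusted p 0.0235), and both were at 10 or less in every Th0 and Th17 library.

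Genes of the pathway outside the 43 were followed in lists of 34 other receptors, sensors and regulators and 89 other response genes. In Th9 against Th0, 8 of 30 tested genes of the first list were higher and 1 lower, and 13 of 46 of the second were higher and 9 lower, with median log2 fold changes of 0.20 and 0.00. These are shares of 30% and 47.83% called, against 25.2% of all genes tested (13.4% higher, 11.9% lower). Both shares include genes that entered the test only through their Th9 libraries, with Th0 means of 5 to 9.67. These were Irf4 in the first list and Psmb8, Casp1, Trim30a, Slfn8 and Slfn2 in the second, all called higher. Both chains of the interferon-gamma receptor rose. Ifngr1 was at 300, 333 and 324 in Th0 and 597, 591 and 493 in Th9 (log2 fold change 0.81 ± 0.10, adjusted p 0.00015), and Ifngr2 at 175, 222 and 207 in Th0 and 330, 331 and 357 in Th9 (0.76 ± 0.11, adjusted p 0.000506). The largest rises among the more abundant genes were those of Ikbke, a kinase of IRF3 and NF-kB signalling, with a log2 fold change of 1.47 ± 0.12, Nlrc5, the activator of MHC class I genes, with 1.35 ± 0.16, Il15ra, which presents interleukin 15, with 1.11 ± 0.18, and Cd47, a signal against phagocytosis, with 0.82 ± 0.09. The largest falls were those of Trim21, an intracellular antibody receptor (-0.78 ± 0.17), Znfx1, a helicase that senses RNA (-0.69 ± 0.11), Ptpn6, the phosphatase SHP-1 (-0.65 ± 0.10), and Slfn9, a schlafen family gene (-0.62 ± 0.15). All 8 passed, with adjusted p between 5.89e-06 and 0.0109.

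In Th17 against Th0 these lists gave 0 calls by limma-trend, of 29 and 42 tested genes, against 1.58% of all genes, with 4 and 5 genes at an unadjusted p under 0.05. Ifngr1 and Ifngr2 had log2 fold changes of 0.21 ± 0.08 (adjusted p 0.234) and 0.00 ± 0.12 (adjusted p 0.995). Between Th17 and Th9, 2 of 31 tested receptors, sensors and regulators were higher with Th17 and 10 lower, and of 44 response genes 9 were higher and 12 lower. These are 38.71% and 47.73% called, against 20.9% of all genes tested (9.63% higher, 11.3% lower). Of the calls of lower, Irf4, Psmb8, Slfn8 and Slfn2 entered this test only through their Th9 libraries, with Th17 means of 0.28 to 8.19. Ifngr1 and Ifngr2 were lower with Th17 than with Th9 (-0.61 ± 0.09 and -0.77 ± 0.10), as were Ikbke (-1.67 ± 0.12), Nlrc5 (-1.49 ± 0.16) and Il15ra (-1.29 ± 0.18). Lgals9, which encodes galectin-9 (0.81 ± 0.15), Ifi204, a DNA-sensing family gene (0.78 ± 0.17), Slfn9 (0.77 ± 0.13) and Herc6, a ligase that attaches Isg15 protein (0.54 ± 0.13), were higher with Th17.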

How the data were processed

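The 9 libraries were made with a stranded SMARTer kit for 1 µg of total RNA, per the labels. The submitters' processing notes name DESeq2 1.62, featureCounts 1.4.5-p1, STAR 2.4.0a and the build GRCm38 (mm10), without roles. Values of both deposited tables are scores: reads scaled by the authors with a size factor for each library, then rounded. All columns were used (0 left out). Approximate reads are value times the size factor recovered from the steps of each column. For 63.5% (Th17 replicate 2) to 100% of the values in a library, only 1 number of reads could give the value. Th0 reads from both tables were within 1 read of each other for 99.96% to 100% of 18022 shared genes.

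limma-trend (limma 3.58.1, R 4.3.3) was fitted on log2(value + 1) over whole tables, with group as the only term. For Th17 against Th9, reads were scaled by TMM factors (trims of 30% and 5%) and all 9 libraries were fitted. Scripts were tested on simulated data. Exon lengths are from GENCODE, promoters from RefSeq (GRCm38.p6).

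The members and lists were chosen with earlier results of these data known. Every member is accounted for; values per library are given for members called in at least 1 comparison and the most abundant of each role, and other pathway genes are named by largest called change (up to 4 per direction, mean of at least 50), with Ifngr1, Ifngr2, Ifng and Ifnb1 always. Further members' library values and Isg15's promoter were chosen after values were seen. Alternatives were log2(value + 8), no filter, a mean of at least 50, equal library totals with and without mt-Rnr1, mt-Rnr2 and Gm26917, array weights, a replicate block, and each library left out.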

Additional observations from a re-analysis of the deposited data

How the results depend on the processing

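Counts of calls moved with array weights, with equal totals and with single libraries left out. In Th9 against Th0, array weights called 6628 genes (3653 in the comparison reported) and 9 members lower, and a mean of at least 50 left 4 members higher. Leaving out 1 library at a time gave 1853 (without Th9 replicate 1) to 5336 genes (without Th0 replicate 1), 3 to 7 members higher and 1 to 7 lower. In Th17 against Th0, 226 genes became 139 with equal totals, 447 with equal totals without the 3 RNA genes, and 3361 with array weights, which also called 2 members higher and 2 lower. Leaving out 1 library gave 16 (without Th17 replicate 3) to 2352 genes, 0 to 1 members higher and 0 to 3 lower, all upper ends without Th0 replicate 1. In Th17 against Th9, equal totals left 2 members higher, and array weights gave 4989 genes with 8 members higher and 8 lower. Leaving out 1 library gave 2018 to 4557 genes, 1 to 6 members higher and 3 to 7 lower. The causes were not tested.

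Differences that changed sign were small. In Th17 against Th0, Irgm1 (-0.01) was at 0.01 with equal totals, with or without the 3 RNA genes, and from -0.10 to 0.09 with 1 library left out. Ifit2 (0.04) was at -0.08 with array weights and from -0.16 to 0.16 with 1 library left out, and Irf8 (-0.22) from -0.38 to 0.05. In Th9 against Th0, Tyk2 (0.02) ran from -0.04 to 0.08, and Irf3 (0.07) from -0.01 to 0.20. Equal totals moved the median log2 fold change of all genes in Th9 against Th0 from -0.01 to 0.1.

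Whether replicate numbers pair the libraries is not settled. Deviations of same-numbered libraries correlated at 0.2, -0.02 and 0.24 in Th9 against Th0, and those of different numbers at -0.23 to 0.11. In Th17 against Th0 the same-numbered ones were at -0.06, -0.12 and 0.05, the others at -0.05 to 0.12. In Th17 against Th9 the same-numbered ones were at 0.01, -0.21 and 0.08, the others at -0.24 to 0.27. With the replicate number as a block, 7 members were higher and 6 lower in Th9 against Th0 (Ifit2, Ifi35 and Eif2ak2 added, adjusted p 0.00904, 0.0212 and 0.0469), 0 and 0 in Th17 against Th0, and 4 and 4 in Th17 against Th9. Over all genes, calls in Th9 against Th0 also rose with the block, from 3653 to 4076. Rounded values of 10 or less limit members such as Gbp3 and Oas3.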
